A study of Mus musculus with 12 samples.

Results

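The cells described are epithelial cells of the mammary tumor of mouse 1, chosen by a summed count over Sfrp1, Pla2g7, Atp6v1c2, Igfbp5, Krt23 and Aqp5 transcripts. Only 93 of them held all 6. A cell of the MT1 libraries was a member when it held at least 1 unique molecular identifier (UMI) of Epcam, at most 1 UMI over the cell cycle genes Top2a, Mki67 and Cenpf, and at least 4 UMIs over the 6 markers, and when that marker sum was more than 2 times the sum over 6 opposed genes (Ccl20, Tnfrsf11b, Ifi27l2a, Ubd, Cd74 and Gpx2). The rule found 2498 members among 6226 Epcam-positive cells of MT1, among 7690 MT1 cells and 21157 cells in the whole data set. The members made up 40.4% ± 4.66 (SD, n = 5 libraries) of Epcam-positive MT1 cells, with 226, 312, 854, 668 and 438 members in MT1 replicates 1 to 5. The share was lowest in MT1 replicate 1 (36.6%, exact 95% interval 32.8 to 40.5) and highest in MT1 replicate 2 (48.0%, 44.1 to 51.9). These intervals cover counting error only. Since measured values of the 16 rule genes chose the members, the levels of these genes and every comparison with the other 3728 Epcam-positive MT1 cells are given as description, without a test.

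Drop-seq, which captures single cells in droplets with barcoded beads, had been run on 2 mice of mixed C57BL/6 and 129/Sv background that carried MMTV-Cre and floxed Brca1 on both alleles. Mouse 1 gave the tumor MT1 (5 libraries) and the fourth mammary glands of the same mouse, MG1 (2 libraries), and mouse 2 gave MT2 (3 libraries) and MG2 (2 libraries). Epithelial cells were enriched from the digested tissue by removal of hematopoietic and endothelial cells, and the tumors were taken by size. The methods describe gland donors as virgin or pregnant females of 3 to 4 months, whereas the labels give these glands to the tumor-bearing mice themselves, with no age or pregnancy state for mouse 1 or mouse 2. All 12 libraries therefore carry the floxed alleles and there was no Brca1 wild-type control; MMTV-Cre acts in mammary epithelium and not in every cell of it, and the members come from 1 tumor of 1 mouse. Whether the libraries of a tissue are separate cell suspensions or repeat runs of 1 suspension is not stated, and they do not repeat the animal, so p-values measure only the spread between libraries, which may be technical. The members of the 5 libraries held 494447 to 2410191 UMIs in sum, and the table lists cells with at least 800 genes. Brca1 (chr11:101488764-101551955), the targeted gene, was at 10.1, 2.68, 2.90, 5.10 and 3.81 CPM (UMIs per 1000000 UMIs) in the members of MT1 replicates 1 to 5, at 11.3 to 22.5 CPM in the other Epcam-positive MT1 cells and at 0 in both MG1 libraries. Loss of the floxed exons cannot be read from these 3′ counts.

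As background, Sfrp1 encodes a secreted frizzled-related protein that binds Wnt ligands and keeps them from their receptors, and Igfbp5 encodes a secreted protein that binds insulin-like growth factors and is known in the mammary gland from involution, the regression that follows lactation. Aqp5 is a water channel of secretory epithelia, Pla2g7 is the secreted hydrolase of platelet-activating factor, Atp6v1c2 is a C subunit of the vacuolar proton pump found in few epithelia, and Krt23 is an acidic keratin. Of the opposed genes, Ccl20 is a chemokine, Tnfrsf11b is the RANKL decoy receptor, Cd74 is the invariant chain of MHC class II, Ubd is a ubiquitin-like protein induced by inflammatory cytokines, Ifi27l2a is an interferon-induced gene and Gpx2 is an epithelial glutathione peroxidase.

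Promoters of genes that define the members are shown because the rule sums over these genes, as markers or as opposed genes. RefSeq promoter sequences (GRCm38.p6, the 250 bases before the start site) were at hand for 5 of the 6 markers and for 3 of the 6 opposed genes (Ccl20, Ubd and Gpx2). They were searched on both strands for TTCNNNGAA (the STAT motif), TGANTCA (AP-1), GGGNNNTTC (NF-kB) and GGAAGT (ETS), and a match is a description of the letters only. The ETS and NF-kB motifs can share letters where one runs into the other. Among 32851 promoters, the STAT letters stood in 7.02%, AP-1 in 6.75%, NF-kB in 11.8% and ETS in 19.7%. Of the 5 markers, Pla2g7 held 1 STAT match, Krt23 held 1 NF-kB match and Aqp5 held 1 ETS match, and no AP-1 match was found in these windows. Of the 3 opposed genes, Ccl20 held 1 NF-kB match and 1 ETS match and Ubd held 2 NF-kB matches. The following promoters are written 5′ to 3′ on the strand of the gene, with the matches in capitals: Pla2g7 (chr17:43568201-43568450, plus strand) for the STAT match, Krt23 (chr11:99493121-99493370, minus strand) for the NF-kB match, and Ubd (chr17:37193642-37193891, plus strand) for the same motif in an opposed gene.
Pla2g7: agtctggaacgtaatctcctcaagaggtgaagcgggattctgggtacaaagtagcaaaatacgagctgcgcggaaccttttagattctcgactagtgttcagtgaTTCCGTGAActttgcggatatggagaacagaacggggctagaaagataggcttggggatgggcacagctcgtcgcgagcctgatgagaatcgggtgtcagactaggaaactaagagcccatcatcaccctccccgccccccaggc
Krt23: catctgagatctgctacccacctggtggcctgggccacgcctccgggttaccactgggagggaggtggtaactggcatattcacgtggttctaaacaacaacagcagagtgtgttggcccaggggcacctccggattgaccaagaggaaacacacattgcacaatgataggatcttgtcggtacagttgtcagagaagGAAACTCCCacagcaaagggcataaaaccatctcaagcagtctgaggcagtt
Ubd: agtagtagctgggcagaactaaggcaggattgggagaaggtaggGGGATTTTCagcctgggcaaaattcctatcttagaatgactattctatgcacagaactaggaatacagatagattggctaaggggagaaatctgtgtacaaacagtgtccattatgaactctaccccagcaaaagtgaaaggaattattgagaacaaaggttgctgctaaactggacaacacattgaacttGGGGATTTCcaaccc

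Counted from the RefSeq start sites, the Krt23 match began 52 bases before the start and read on the other strand. The Ubd matches began 206 and 15 bases before the start, and the Pla2g7 match 145 bases before it. By the GENCODE gene positions given below, the Pla2g7 and Atp6v1c2 windows and most of the Aqp5 window lie inside the gene. For these genes the start sites of the annotations differ. The promoters of Atp6v1c2 and Igfbp5 held none of the 4 motifs in this window.

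Levels are given as CPM, UMIs of the gene scaled to 1000000 UMIs of that class of cells in that library. Igfbp5 (chr1:72857932-72874884) was at 2366, 2558, 2437, 2469 and 2481 CPM in the members of MT1 replicates 1 to 5, at 364, 522, 427, 323 and 394 CPM in the other Epcam-positive MT1 cells of the same libraries, and at 1114 and 539.9 CPM in Epcam-positive MG1 cells. The members were higher than the others in every library, and the gland lay between them. Sfrp1 (chr8:23411502-23449632) was at 483, 554, 524, 546 and 488 CPM in the members, at 101 to 143 CPM in the others and at 26.4 and 50.9 CPM in MG1. Here the gland was lower than both tumor classes, without overlap. Epcam, used by the rule, was at 1783 ± 70.5 CPM in the members and 2443 ± 123 CPM in the others.

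The markers were then read in the gates of the gland. Among MG1 cells of the secretory luminal gate Igfbp5 was at 1903 and 617 CPM in replicates 1 and 2, against 212 and 554 CPM in the hormone-sensing gate and 1071 and 704 CPM in the basal gate. Sfrp1 was highest in the basal gate, at 131 and 113 CPM, with 17.5 and 29.9 CPM in the secretory luminal gate. Aqp5 was highest in the hormone-sensing gate, at 281 and 141 CPM, with 56.6 and 22.4 CPM in the secretory luminal gate. Atp6v1c2 was at 45.4 and 48.6 CPM in the secretory luminal gate, 3.00 and 0 CPM in the hormone-sensing gate and 23.8 and 28.1 CPM in the basal gate, the last from 5 UMIs. Pla2g7 was at 34.3 and 11.2 CPM in the secretory luminal gate, 7.01 and 0 CPM in the hormone-sensing gate and 53.5 and 0 CPM in the basal gate, and Krt23 at 10.4 and 3.74, at 3.00 and 0 and at 41.6 and 0 CPM. Sfrp1, Aqp5 and Atp6v1c2 were each highest in the same gate in both libraries, while the gate with the highest level of Igfbp5, Pla2g7 and Krt23 differed between the libraries.

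Pla2g7 (chr17:43568098-43612201) was at 401 to 524 CPM over the member libraries, 97.8 to 119 in the others and 6.17 to 27.1 in MG1. Atp6v1c2 (chr12:17284721-17329359) was at 272 to 392, 149.6 to 185 and 26.2 to 27.1 CPM, and Krt23 (chr11:99477974-99493137) at 165 to 210.3, 81.4 to 106 and 3.09 to 10.1 CPM, in the same order. For these markers too the 3 classes did not overlap between libraries. Aqp5 (chr15:99590782-99594829) was at 378 to 639 CPM in the members, 186 to 286 in the others and 58.6 to 140.2 in MG1, and MT1 replicate 1 was the highest library in both tumor classes. On the log2 scale of CPM plus 10, the members exceeded the others by 2.59 ± 0.23 for Igfbp5, 2.02 ± 0.20 for Sfrp1 and 1.90 ± 0.12 for Pla2g7, and by 1.02 ± 0.10 for Aqp5, 1.02 ± 0.16 for Atp6v1c2 and 0.97 ± 0.18 for Krt23 (mean ± SD of 5 paired differences). The opposed genes were lower in the members in every library, from -1.24 ± 0.17 for Gpx2 to -2.53 ± 0.26 for Cd74. These sizes follow from the choice of the members and are given as a description.

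**Figure D1:**
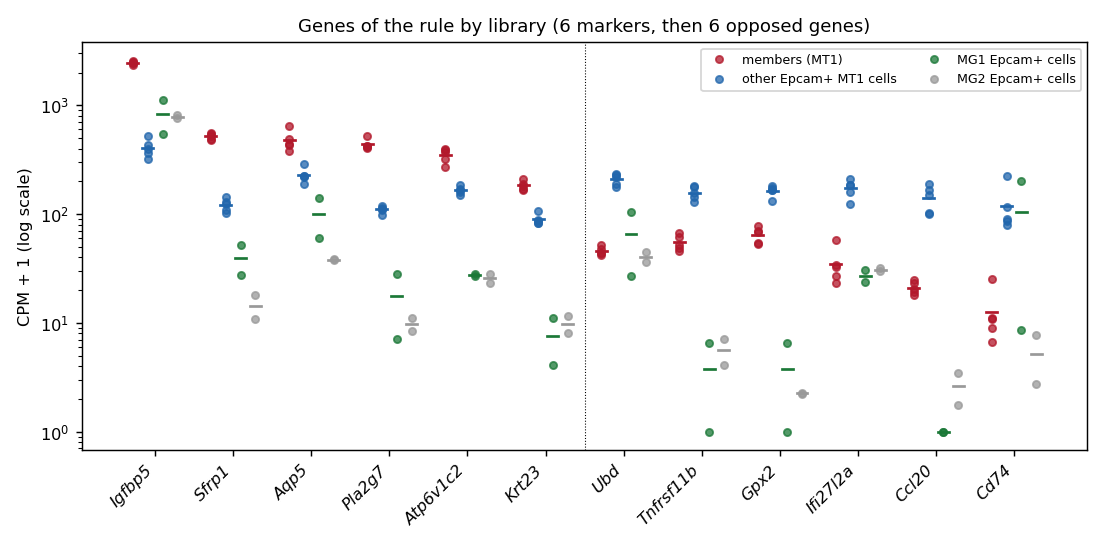
CPM plus 1 on a log axis of the 6 markers (left of the dotted line) and the 6 opposed genes in members, other Epcam-positive MT1 cells, and Epcam-positive MG1 and MG2 cells; points are libraries (5, 5, 2 and 2) and bars are means. Each marker is highest in the members; for Igfbp5 the gland lies between the members and the other tumor cells.

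The markers were not read in every member. Of the members, 88 held UMIs of 1 marker, 408 of 2, 813 of 3, 724 of 4, 372 of 5 and 93 of all 6. Igfbp5 was read in 91.2% of members, Sfrp1 in 60%, Pla2g7 in 57.0%, Atp6v1c2 in 55.0%, Aqp5 in 51.6% and Krt23 in 31.8%, at a median of 2245.5 UMIs per cell. In 471 MT1 cells that held no Epcam UMI and at least 5 fibroblast marker UMIs, at a median of 2413 UMIs, these shares were 19.3%, 10.6%, 18.7%, 2.34%, 11% and 2.97%, which gives a measure of free RNA or of expression in stroma. Since members were chosen by these markers, their higher shares follow from the rule.

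The marker sum had a median of 9 UMIs in the members and reached 139. Just inside the limit, 258 members had a sum of 4, and just outside it 296 cells met the other conditions with a sum of 3. A further 265 cells with a sum of 4 or more were outside by the ratio to the opposed genes, and 388 cells were outside by the cycling condition alone. Cells outside the rule are thus not all without the markers, and among the other Epcam-positive MT1 cells Igfbp5 was read in 41.5%. Without Igfbp5 the sum over the other 5 markers was still 4 or more in 1586 members, and 73 members held Igfbp5 only.

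The rule was also met in the gland. Applied to the gland, it was met by 310 of 729 Epcam-positive MG1 cells (42.5%), of which 168 met it with Igfbp5 as the only marker. With the sum taken over the other 5 markers, it was met by 24.4% ± 3.31 of Epcam-positive MT1 cells (n = 5), 7.19% ± 0.939 of MG1 cells (n = 2) and 0.661% ± 0.118 of MG2 cells (n = 2). MG1 cells were deeper, with a median of 3687 UMIs. When every cell was thinned to 1500 UMIs and shallower cells were left out, the full rule was met by 34.6% ± 2.08 of MT1 cells and 15.5% ± 5.70 of MG1 cells. In MT2, 11 of 123 Epcam-positive cells met it.

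The members were checked against epithelial lineage markers. Of the members, 2063 (82.6%) fell in the secretory luminal gate (at least 2 UMIs over Elf5, Kit, Aldh1a3, Csn3, Lalba, Ltf, Wap, Csn2, Trf and Lcn2, and more than 2 times the sum of each other lineage), 7 fell in the hormone-sensing luminal gate and 28 in the basal myoepithelial gate. Of the other Epcam-positive MT1 cells the same gates held 74.7%, 1.48% and 1.29%, and of the Epcam-positive MG1 cells 43.3%, 31.6% and 8.78%. The hormone-sensing markers summed to 111 to 151 CPM in the members, 109.9 to 189 CPM in the others and 1626 to 2483 CPM in MG1. Of the basal markers Oxtr was at 0 in the members and Krt5 at 1.10 ± 1.69 CPM, while Krt14 stood at 148 ± 38.7 CPM. Among cell types outside the epithelium, fibroblast markers (6 of 6 read) summed to 99.1 to 355 CPM in the members, 403 to 729 in the others and 1519 to 1909.8 in MG1. Immune markers summed to at most 2.02 CPM in the members, with C1qa, C1qc, Cd79a and Ms4a1 at 0, against up to 43.8 in the others and 30.9 in MG1. At least 2 UMIs over fibroblast, endothelial and immune markers were held by 116 members (4.64%) and 360 other cells (9.66%), and by 305 of the 729 Epcam-positive MG1 cells (41.8%). The deposited table shared 21 cell barcodes between libraries, and 4 members carried such a barcode.

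Within the tumor, members were set beside the other Epcam-positive cells of the same library. Of 11840 genes outside the rule with at least 20 UMIs in either class, 38 (0.321%) were higher in the members by 1 or more on the log2 scale with all 5 libraries in that direction, and 199 (1.68%) were lower. Without the cells that held 2 or more stromal UMIs there were again 38 and 199, with 32 and 178 genes in common. The counts were 162 and 701 with a pseudocount of 1 CPM in place of 10, and 12 genes were higher with a marker sum that left out Igfbp5. Of the milk protein genes, 5 of 8 measured were higher in all 5 libraries and 1 lower, with Spp1 and Csn1s1 higher by 1 or more, where 13.0% of all genes outside the rule were higher and 23.7% lower. Against the noncycling others 3 of 8 were higher. Scd1 (chr19:44394455-44407879), the stearoyl-CoA desaturase, was at 1395, 1409, 1279.6, 1338 and 1300.2 CPM in the members and 499, 439, 440.4, 439 and 450.4 CPM in the others, a difference of 1.55 ± 0.08. The classes did not overlap. Plin2, a lipid droplet coat protein, was at 806 to 1118 against 373 to 512 CPM (0.99 ± 0.16), just under the limit of 1. Spp1 (chr5:104435118-104441050), osteopontin, was at 2241 to 3990.3 against 738 to 955 CPM (1.60 ± 0.32), with MT1 replicate 1 the highest. Spp1 is also a gene of stroma and was read in 70.7% of the fibroblast-gate cells, against 49.0% of members. The casein gene Csn1s1 was at 173 to 302 against 82.4 to 112 CPM (1.15 ± 0.31).

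The acute-phase gene Saa1 (serum amyloid A) was at 53.5 to 92.9 against 17.4 to 22.5 CPM (1.52 ± 0.25), Hp (haptoglobin) at 799.6 to 1064 against 337 to 449 (1.30 ± 0.10) and Lbp (lipopolysaccharide binding protein) at 224 to 265 against 79.9 to 133 (1.21 ± 0.20). All of these were higher in the members in each library. Wif1 (chr10:121033960-121100650), a second secreted Wnt antagonist beside Sfrp1, was low in both classes, at 26.3, 21.4, 18.7, 33.5 and 62.8 CPM in the members and 11.2, 6.26, 7.32, 4.03 and 7.35 CPM in the others (1.23 ± 0.59). Pik3r1, a regulatory subunit of PI3-kinase, differed by 1.31 ± 0.21, the kinesin gene Kif21a by 1.34 ± 0.26, the matricellular gene Sparcl1 by 1.26 ± 0.23, the chitinase-like gene Chil1 by 1.19 ± 0.28 and the calcium-binding gene Ncald by 1.23 ± 0.61. Pipox, a peroxisomal oxidase, was at 42.9 to 68.8 CPM in the members and 12.5 to 20.0 CPM in the others (1.29 ± 0.13). S100a8 (1.29 ± 0.37) and Wfdc17 (1.51 ± 0.89), genes also known from myeloid cells, were also among the 15 genes with the largest difference in this direction, and Wfdc17 ranged from 10.8 to 119.7 CPM over the member libraries.

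**Figure D2:**
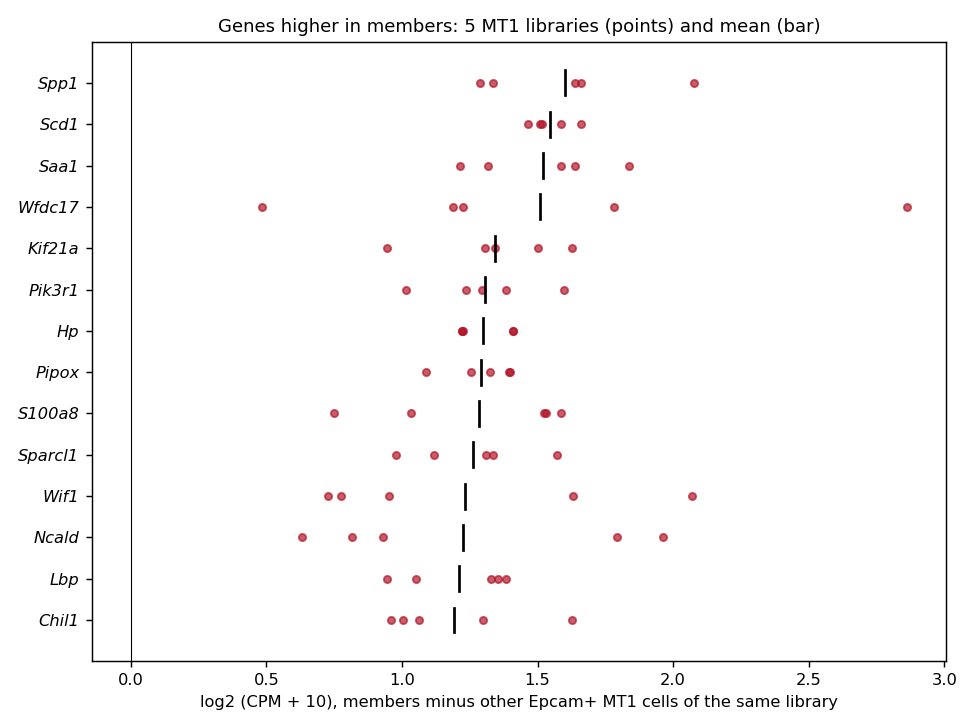
Differences in log2 of CPM plus 10 between members and other Epcam-positive MT1 cells of the same library, for 14 of the 15 genes outside the rule with the largest higher values; points are the 5 MT1 libraries and bars their means. Every point lies right of 0, and Wfdc17 and Ncald have the widest spread.

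Of the 10 genes with the largest difference in the lower direction, 8 (Ube2c, Cenpe, Pclaf, Nusap1, Birc5, Cdk1, Anln and Tpx2) are genes of the cell cycle, which the cycling condition of the rule holds down in the members and not in the others. The members were therefore also set beside the 2680 other cells that met the cycling condition. Against these, 52 of 11254 genes (0.462%) were higher and 159 (1.41%) lower by 1 or more in all 5 libraries. MHC class II genes were among the lowest. H2-Aa was at 14.2, 3.57, 4.98, 5.67 and 4.76 CPM in the members against 36.0 to 80.9 CPM in the noncycling others (-2.09 ± 0.67), and the differences were -1.96 ± 0.26 for H2-Ab1 and -2.07 ± 0.24 for H2-Eb1. Cd74, which belongs to the same pathway, is an opposed gene of the rule, so cells with class II transcripts were held out in part by the rule itself.

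Of the mesenchymal genes, 0 of 8 measured were higher in all 5 libraries and 4 lower, where 13.0% of all genes were higher and 23.7% lower, and 28.1% of members and 25.9% of the others held at least 2 UMIs over this list. Its member Vim (vimentin) was at 208, 325, 289, 201 and 254 CPM in the members and at 789 to 992 CPM in the others (-1.80 ± 0.20), and Cav1 (caveolin), from outside the list, at 187 to 449 against 849 to 1372 CPM (-1.76 ± 0.25). Tmsb4x, thymosin beta, was at 570.5 to 873 against 1693 to 2930.04 CPM (-1.71 ± 0.11). The classes did not overlap for these genes. Ccnd1 (cyclin D) was at 142 to 175 against 359.9 to 446 CPM (-1.38 ± 0.15), the adhesion receptor Cd44 at 169.8 to 234 against 311 to 407 (-0.86 ± 0.17) and Krt19 at 207 to 337 against 462 to 685 (-1.0 ± 0.17). Fibroblast markers moved with these genes: 4 of 6 were lower in all 5 libraries (median -0.91), and 3.88% of members and 8.53% of the others held at least 2 of their UMIs. Without the cells that held 2 or more stromal UMIs, the differences were -1.73 ± 0.61 for Vim, -1.86 ± 0.53 for Cav1 and -0.81 ± 0.18 for Cd44. Csf1, the macrophage colony stimulating factor, differed by -1.87 ± 0.24 against the noncycling others, the G protein subunit Gnb4 by -2.07 ± 0.37, the lipoxygenase Alox12e by -1.95 ± 0.52 and Pmaip1, a BH3-only protein, by -1.86 ± 0.15. Ptn (pleiotrophin) was at 0, 12.5, 57.3, 209 and 82.8 CPM in the members and 131, 655, 307, 262 and 162 CPM in all others (-2.43 ± 1.93), and the classes overlapped between libraries. The difference was -2.98 ± 2.01 against the noncycling others, -1.76 without the cells with 2 or more stromal UMIs and -1.06 without cells in the hormone-sensing or basal gate.

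Gene lists of the pathways to which the markers belong were then read within the tumor. The median difference over all genes outside the rule was -0.06. In the IGF axis, 3 of 12 measured were higher in all 5 libraries and 3 lower (median 0.09), the lower share being near the 23.7% of all genes, of which 13.0% were higher. The receptors Igf1r (0.58 ± 0.29) and Insr (0.46 ± 0.20) and the adaptor Irs2 (0.43 ± 0.15) were higher, while Igfbp7 (-0.48 ± 0.13), Igfbp4 (-0.86 ± 0.20) and Igfbp3 (-0.91 ± 0.82) were lower, and no other IGF-binding protein was higher in all 5 libraries. Of V-ATPase subunits, 4 of 17 measured were higher in all 5 libraries and 6 lower, and neither this list nor the Wnt lists are read as differing from the background of all genes. The catalytic subunit gene Atp6v1a (0.39 ± 0.06), the stalk gene Atp6v1g1 (0.48 ± 0.09) and Atp6v1b1 (0.73 ± 0.13), another subunit of few epithelia, were higher. Atp6v0a4 (-0.90 ± 0.29) and the X-linked accessory subunits Atp6ap1 (-0.66 ± 0.20) and Atp6ap2 (-0.64 ± 0.13) were lower.

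The counts of the next lists stand beside the 13.0% of all genes that were higher in all 5 libraries and the 23.7% that were lower. Among Wnt ligands and receptors 1 of 12 measured were higher in all 5 libraries and 3 lower. Fzd7 was higher (0.20 ± 0.14), and Wnt7b (-0.69 ± 0.09) and Wnt10a (-1.02 ± 0.26) were lower. Of the Wnt antagonists outside the rule 1 of 2 measured were higher in all 5 libraries and 1 lower, the former Wif1 and the latter Sfrp2 (-0.36 ± 0.36), which had 4 UMIs in all members. Of the Wnt target genes, 1 of 9 measured were higher in all 5 libraries and 2 lower. Axin2, a common readout of Wnt signalling, was at 1.57 ± 1.25 CPM in the members, too low to compare. Of the aquaporins and ion transporters 1 of 6 measured were higher in all 5 libraries and 4 lower. Of the genes of platelet-activating factor and phospholipases 1 of 11 measured were higher in all 5 libraries and 2 lower, with the phospholipase Plb1 lower (-1.35 ± 0.23). Of the keratin list, which leaves out the rule gene Krt23 and the simple epithelial keratins Krt8, Krt18 and Krt19, 0 of 10 measured were higher in all 5 libraries and 0 lower.

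In the lists of transcription factors and of immediate early genes most of the genes measured were higher in the members, where 13.0% of all genes were higher in all 5 libraries and 23.7% lower. Of the lineage transcription factors 12 of 20 measured were higher in all 5 libraries and 2 lower (median 0.29), among them Cebpb (0.69 ± 0.10), Tfap2c (0.69 ± 0.28), Foxc1 (0.60 ± 0.12), Runx1 (0.54 ± 0.24), Nfib (0.52 ± 0.04) and Sox10 (0.38 ± 0.09). Against the noncycling others, 7 of 20 were higher in all 5 libraries and 3 lower, where 13.4% and 20.8% of all 11254 genes were. Of the immediate early genes 12 of 15 measured were higher in all 5 libraries and 1 lower (median 0.36), with Fos at 1652 to 2198 against 1024 to 1346 CPM (0.65 ± 0.28) and Jun at 1272 to 1874 against 732 to 1018 CPM (0.76 ± 0.15). These genes are also known to respond to tissue dissociation, whose part in this difference was not tested. Of the NF-kB and inflammatory genes 2 of 19 measured were higher in all 5 libraries and 10 lower: the chemokines Cxcl1 (-0.69 ± 0.15) and Cxcl2 (-1.26 ± 0.18) and the factor gene Nfkb1 (-1.0 ± 0.18) were lower, while Sod2 was higher (0.72 ± 0.16). Of the antioxidant genes 5 of 14 measured were higher in all 5 libraries and 0 lower, led by Nqo1, a quinone reductase (1.05 ± 0.09). Against the noncycling others 6 were higher and 2 lower, and the median was -0.02 in place of 0.09.

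Genes that differed between members and the other tumor cells lay together in stretches of the genome. The 4613 genes with a mean of at least 30 CPM that could be placed on GRCm38, rule genes left out, were taken in windows of 20 neighbours, and the median difference of each window was centred on the median of all. Of 221 windows, 6 (2.71%) were lower in the members by 0.35 or more on the log2 scale in each of the 5 libraries and 3 (1.36%) were higher. The calls depended on the windows: with windows of 40 genes 2 were lower, in the chromosome 3 and X blocks below, and 0 higher, and with windows shifted by 10 genes 6 were lower and 1, in the chromosome 8 block, higher. The chromosome 1 block held no called window with windows of 40 genes or genes of at least 60 CPM, and the chromosome 2 block none with windows of 40 genes or shifted ones. The 9 windows fell on 5 chromosomes, and windows of 1 chromosome were joined into a block together with any window between them. On chromosome 3, from 130.7 to 151.7 Mb, 40 genes had a median difference of -0.78 ± 0.05 (range over libraries -0.82 to -0.69), and 35 of the 40 lay below the centre. On chromosome 8, from 3.6 to 31.1 Mb, 60 genes had a median difference of 0.48 ± 0.07, and 57 of the 60 lay above it. The marker Sfrp1, left out of this count, lies in that block.

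On the X chromosome, from 7.7 to 102.2 Mb, 80 genes differed by -0.44 ± 0.03, and 74 of them lay below the centre. The difference was not limited to this block: over the whole X, 125 genes had a median of -0.37 ± 0.03. Whole autosomes ranged from -0.14 ± 0.03 (chromosome 3) to 0.10 ± 0.03 (chromosome 19). Shorter blocks were a lower stretch of chromosome 1 (177.0 to 182.3 Mb, 20 genes, -0.41 ± 0.05) and a higher stretch of chromosome 2 (148.7 to 153.3 Mb, 20 genes, 0.41 ± 0.08). Windows just outside had a mean past the limit and at least 1 library nearer to 0, among them chromosome 16 (11.1 to 20.3 Mb, -0.45 ± 0.10), chromosome 1 (171.2 to 176.8 Mb, -0.42 ± 0.13) and chromosome 2 (156.2 to 163.7 Mb, 0.42 ± 0.08). Since these windows were picked by the difference itself, the values describe the members and are not a test. DNA was not measured, and the part of DNA copy number, of gene regulation and, for the X chromosome, of X inactivation was not tested.

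**Figure D3:**
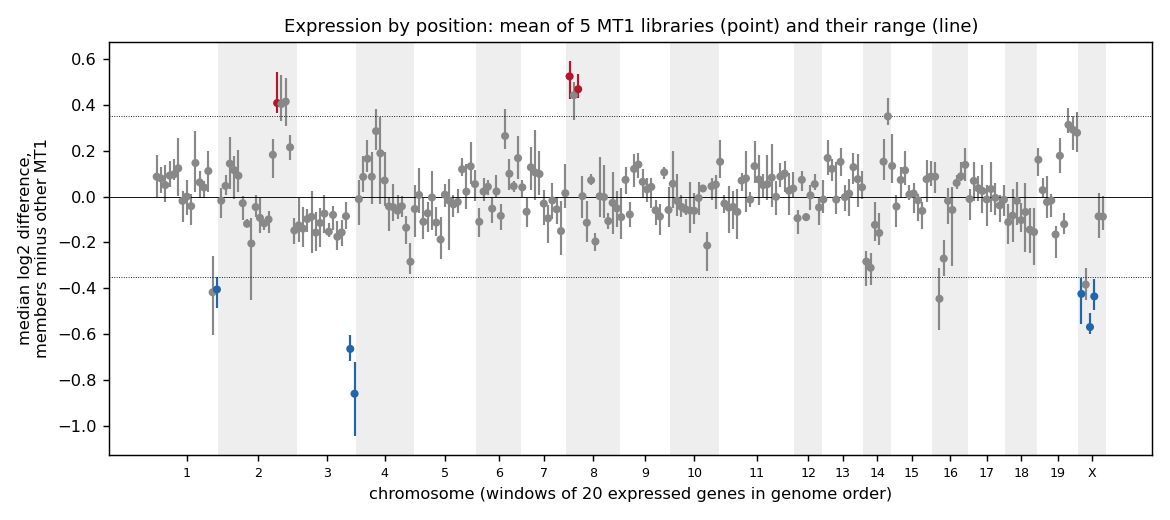
Median log2 difference, members minus other Epcam-positive MT1 cells, of 221 windows of 20 expressed genes in genome order (rule genes left out); points are means of the 5 MT1 libraries, lines their range, dotted lines the limit of 0.35, and red and blue the windows past it in all 5 libraries. The lowest windows are the last of chromosome 3, and the first windows of chromosome 8 are the highest.

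Single genes of the blocks, chosen after their values were seen, are given next. In the chromosome 3 block, the differences were -1.24 ± 0.09 for Sh3glb1, -1.01 ± 0.09 for the ubiquitin-conjugating enzyme Ube2d3, -1.17 ± 0.21 for the kinase Pkn2, -1.25 ± 0.24 for the G protein subunit Gng5 and -1.09 ± 0.09 for the selenoprotein Selenof. The neighbouring interferon-induced genes Gbp2 (-1.42 ± 0.23) and Gbp3 (-1.28 ± 0.14) and Nfkb1, named above, lie in this block too. The ribosomal gene Rpl34 went the other way (0.32 ± 0.13). In the chromosome 8 block, Fgfr1, a fibroblast growth factor receptor, differed by 0.99 ± 0.10, Tcim by 0.89 ± 0.09, Lamp1 of the lysosome by 0.62 ± 0.06 and Eif4ebp1, a repressor of translation initiation, by 0.48 ± 0.15. In the X block, Msn (moesin) differed by -0.91 ± 0.15 and Bcap31 by -0.70 ± 0.09, while the ribosomal genes Rps4x (-0.06 ± 0.09) and Rpl10 (-0.08 ± 0.03) were near 0. Xist, the RNA of the inactive X, was at 216, 257, 227, 172 and 247 CPM in the members, 129.8, 117, 161, 118 and 176 CPM in the others and 548 and 475 CPM in MG1. Against MG1 it fell in the members (-1.29, SE 0.16, adjusted p 1.36e-05) and in the others (-1.96, SE 0.18, adjusted p 6.05e-07).

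Each block was then set beside Epcam-positive MG1 cells, the gland of the same mouse, in which the rule had used no value, again without a test. The chromosome 3 block was -0.72 ± 0.07 in the members and 0.07 ± 0.04 in the other tumor cells relative to MG1 (log2, mean ± SD of 5 libraries). The chromosome 8 block was 0.91 ± 0.05 in the members and 0.42 ± 0.06 in the others, and the X block was -0.36 ± 0.09 and 0.07 ± 0.03. The blocks were picked by the difference between members and others, so a gap between these classes beside MG1 follows from that choice. As a description, the member libraries lay farther from the gland than the other tumor cells did in each of these blocks. Mirrored cells were 392 noncycling Epcam-positive MT1 cells with 4 or more UMIs over the opposed genes and more than 2 times their marker sum. They are part of the other cells and were chosen by the reverse sums, so their side is partly built in. They stood at 0.33 ± 0.11 in the chromosome 3 block, 0.07 ± 0.03 in the chromosome 8 block and 0.23 ± 0.08 in the X block. With the secretory luminal cells of MG1 as the reference, the members stood at -0.81 ± 0.10, 0.88 ± 0.10 and -0.36 ± 0.06. MG1 replicate 1 differed from MG1 replicate 2 by 0.08 in the chromosome 3 block and by -0.11 in the chromosome 8 block. In the chromosome 2 block the MG1 libraries lay -0.26 apart, and the members stood at 0.84 ± 0.13 and the others at 0.35 ± 0.06 relative to their mean.

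**Figure D4:**
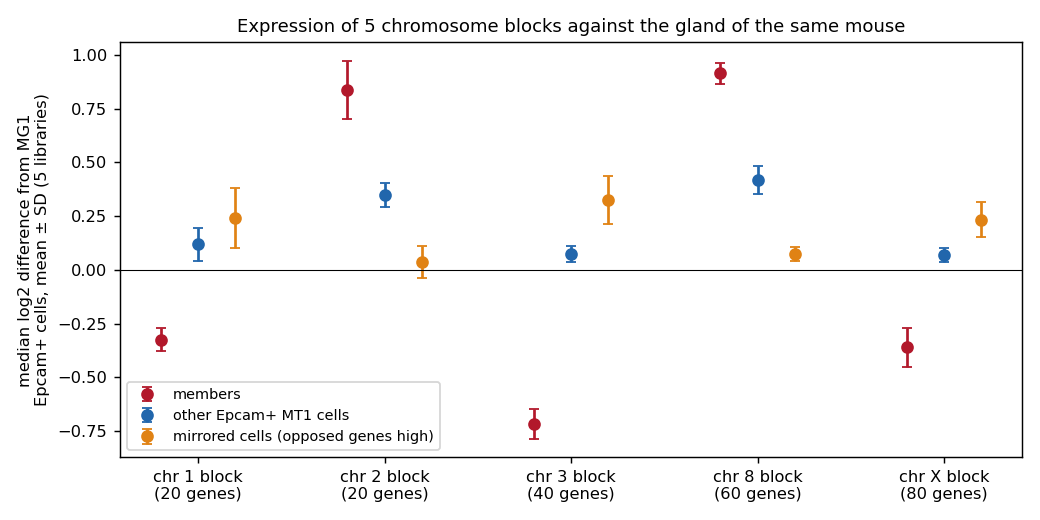
Median log2 difference from Epcam-positive MG1 cells in 5 chromosome blocks for members, other Epcam-positive MT1 cells and mirrored cells (high in the opposed genes); points and bars are the mean and SD of 5 MT1 libraries, and the number of genes stands under each block. Members and mirrored cells lie on opposite sides of the other cells in every block. This is partly built in, since mirrored cells are other cells chosen by the reverse sums and the blocks were picked by members minus others.

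The share of UMIs from the blocks was also read by the marker sum. For the chromosome 3 block it was 6523 ± 421 CPM in the mirrored cells, 4020.2 ± 334 in the cells just outside the rule with a marker sum of 3, 3814 ± 118 in members with a sum of 4 to 5, 3526 ± 129 with a sum of 6 to 9 and 3289 ± 66.4 with 10 or more (mean ± SD of 5 libraries). For the chromosome 8 block the same classes stood at 4673 ± 160.2, 7840.1 ± 672, 8131 ± 235, 9068 ± 365 and 9189 ± 235 CPM. These classes are cut from the sums that the rule used, so the levels are a description and support nothing further. The cycling cells, left out by the cycling condition, were split by the same sums and belong to the other cells used to pick the blocks. Their values are therefore a description too. The 388 that met the marker conditions had 3700.5 ± 350.2 CPM in the chromosome 3 block and 8822 ± 639.5 in the chromosome 8 block. The 660 that did not had 6063 ± 195 and 5289.99 ± 158 CPM. In single cells of 2500 or more UMIs the chromosome 3 share spread widely: the 10th and 90th percentiles were 1930.3 and 5357 CPM in the members and 3750.5 and 9355 CPM in the mirrored cells, and these ranges overlapped.

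Members were compared with Epcam-positive MG1 cells to ask how these tumor cells differ from the gland of the same mouse. UMIs were summed per library and tested with the quasi-likelihood test of edgeR, with p-values adjusted over all genes. Of 11212 genes outside the rule, 3059 (27.3%) were higher in the members and 3364 (30%) lower, so most genes tested were called and single genes are read by their size. The MG1 class holds hormone-sensing and basal cells next to secretory luminal ones, and in these sums fewer cells of a type and less RNA per cell cannot be told apart. Against the 316 MG1 cells of the secretory luminal gate, 2644 of 9973 genes (26.5%) were higher and 2644 (26.5%) lower.

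The 3 neighbouring genes Met, Capza2 and St7 on chromosome 6 were among the 12 with the largest rise. Capza2 (chr6:17636234-17666972), an actin capping subunit, was at 14293, 13435, 11242, 11870.5 and 12313 CPM in the members and 479.97 and 160.4 CPM in MG1, a log2 fold change of 5.13 (SE 0.40, adjusted p 1.55e-07). Met (chr6:17463800-17573980), the receptor of hepatocyte growth factor, was at 2404 to 2706 against 77.1 to 168 CPM (4.2), and St7 (chr6:17692933-17943025) at 588 to 789 against 16.3 to 18.5 CPM (5.18). Of 12164 genes, 3595 (29.6%) were higher and 3565 (29.3%) lower in the other Epcam-positive MT1 cells against the same MG1 sums, which both comparisons share. These cells had log2 fold changes of 5.09, 4.27 and 5.30 for Capza2, Met and St7, so that this locus was high in both classes of tumor cells. Cav1 lies next to these genes (chr6:17306335-17341452) and was higher than MG1 by 3.15 in the members and 4.89 in the others.

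Serpine2, a protease inhibitor, was at 1219.5, 956, 997, 1149 and 1065 CPM in the members and 39.6 and 17.0 CPM in MG1 (4.94, SE 0.29, adjusted p 1.28e-08), and Fabp5, a fatty acid binding protein, at 841 to 1181 against 29.3 to 35.1 CPM (4.82). Pipox had 354 UMIs in the members and 0 in MG1, so that it was at least 60.8-fold higher, taking 3 counts over the group as the limit. The other genes of these 12 were Upp1 (4.77), Scrg1 (4.66), the collagen gene Col9a1 (4.63), Hrct1 (4.48), Wfdc17 (4.33) and Dram1 (3.97). Scd1, set apart within the tumor, was also higher than in MG1 (3.42, SE 0.18, adjusted p 7.33e-09), and it rose by 1.85 in the other tumor cells. For Hp the values were 1.21 in the members and -0.12 in the others, and for Lbp 3.11 and 1.85. Spp1 rose against MG1 (1.25, adjusted p 2.30e-04) but had 0.11 (adjusted p 0.709) against the secretory luminal cells of MG1.

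**Figure D5:**
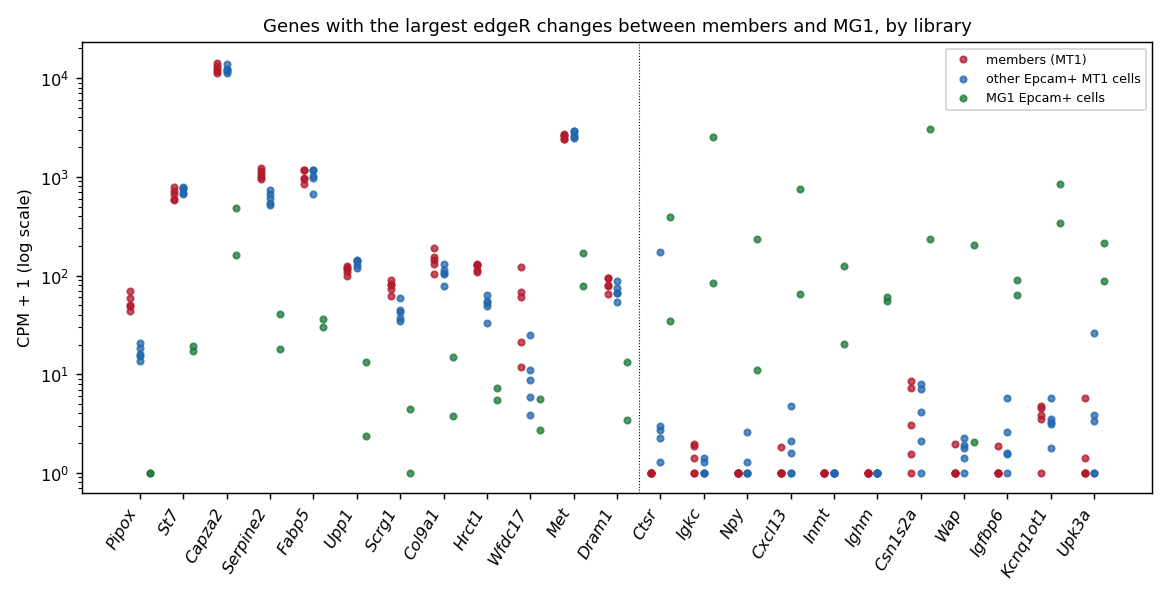
CPM plus 1 on a log axis of the 12 genes with the largest rise (left of the dotted line) and 11 of the 12 with the largest fall between members and Epcam-positive MG1 cells; points are libraries (5 MT1, 2 MG1), with the other Epcam-positive MT1 cells beside them. The 2 MG1 libraries lie far apart for several genes on the right, Igkc and Csn1s2a among them.

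Milk protein genes were among the largest falls. Csn1s2a was at 0, 6.26, 2.07, 0.567 and 7.61 CPM in the members and 231 and 3085 CPM in MG1 (-9.03, SE 0.77, adjusted p 3.77e-07), Csn2 (beta-casein) at 17.1 ± 14.9 against 505 and 4136 CPM (-7.08), and Wap (whey acidic protein) at 0.190 ± 0.426 against 1.04 and 202 CPM (-8.67). Without MG1 replicate 2, which holds 92 Epcam-positive cells, the change of Wap was -2.58 and was not called (adjusted p 0.0815), and those of Csn1s2a and Csn2 were -6.34 and -5.02. Of the 10 milk protein genes tested, 6 fell and 4 rose, and without that library 5 fell and 5 rose. Among those that rose were Spp1 and Plin2 (2.10, SE 0.20, adjusted p 1.16e-06). Csn2, Wap and Csn3 are counted in the list of secretory luminal genes and not in these 10. Csn3 did not pass the test (-0.43, adjusted p 0.067) but fell against the secretory luminal cells of MG1 (-1.59, adjusted p 8.46e-06). Csn1s1, higher in members than in the other tumor cells, was lower than in MG1 (-2.69 in the members and -3.94 in the others).

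Kcnq1ot1, annotated as an imprinted antisense RNA, was at 0, 3.57, 2.49, 2.84 and 3.81 CPM in the members and 337 and 842 CPM in MG1 (-7.73, SE 0.35, adjusted p 2.13e-09); whether strand was used in counting is not stated, so reads of the overlapping Kcnq1 cannot be told apart from it. Ctsr had 0 UMIs in the members and 1158 in MG1, at least 749-fold lower in the members, and Npy and Inmt were also at 0 in the members (at least 117-fold and 88.0-fold lower). Upk3a (-7.50), Igfbp6 (-8.56) and Cxcl13 (-10.13) fell as well, Cxcl13 by 7.69 on the log2 scale without MG1 replicate 2. The immunoglobulin genes Igkc and Ighm were among the 12 falls because MG1 held them, Igkc at 83.8 and 2532 CPM and Ighm at 59.8 and 54.0 CPM. These are genes of B and plasma cells. Stromal UMIs (2 or more) were held by 41.8% of MG1 cells and 4.64% of members, and without those cells Igfbp6 was too low to test. The part of immune and stromal cells in these falls was not tested.

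By gene list, the median over all genes tested against MG1 was -0.01, and 27.3% of them rose and 30% fell. The hormone-sensing genes fell in 6 of 7 cases and rose in none, with Pgr, the progesterone receptor, at -7.11 and Prlr at -4.51. Of the basal genes 1 of 8 tested rose and 6 fell (median -4.84): Krt5 changed by -5.85 and Tagln by -6.32, and the one that rose was Trp63 (2.41, SE 0.48, adjusted p 6.07e-04), the p63 transcription factor. These lists mark cell types that MG1 holds. Of the secretory luminal genes 1 of 10 tested rose and 7 fell (median -1.74), and Elf5, their transcription factor, was the one that rose (1.04, SE 0.20, adjusted p 5.05e-04), with -0.08 (adjusted p 0.759) against the secretory luminal cells of MG1. Of the aquaporins and ion transporters 1 of 11 tested rose and 10 fell (median -3.62), among them Slc12a2, a chloride cotransporter (-3.62), and Aqp3 (-2.91).

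Interferon genes rose in 11 of 15 cases and none fell (median 1.46), with Ifit3 at 3.89 and Oasl2 at 2.53. In the other tumor cells 13 of 15 rose and 1 fell against the same MG1 sums. Of the MHC class I and immunoproteasome genes 7 of 10 tested rose and 2 fell (median 1.36), with B2m at 7020.2 to 9773 against 1487 to 2054 CPM (2.13). Of the MHC class II genes, 0 of 4 tested were called in the members by edgeR, against 1 (H2-Ab1) at an unadjusted p under 0.05 and 1 (H2-Eb1) called by DESeq2, while 3 of 7 rose in the other tumor cells. The median of the 4 was -1.39, and it turned to 1.48 without MG1 replicate 2 and to 1.72 without the cells with 2 or more stromal UMIs, so no direction is given. Whether the 2 classes differ in this was not tested. Of the hypoxia and glycolysis genes 9 of 13 tested rose and 4 fell (median 1.22): Eno1 rose (2.74) and Vegfa fell (-1.83). Of the V-ATPase subunits 7 of 17 tested rose and 4 fell (median 0.36), where 27.3% of all genes rose and 30% fell. The largest rise among those read in MG1 was Atp6v1c1 (2.11, SE 0.31, adjusted p 5.31e-05), the widespread paralog of the marker Atp6v1c2. Atp6v1b1 fell (-2.48) and Atp6v0a4 rose (7.46) against MG1, both called, the reverse of their differences within the tumor.

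In the lists that follow, counts stand beside the 27.3% of all genes that rose and the 30% that fell. In the IGF axis 2 of 13 tested rose and 5 fell (median -0.45): Igfbp7 (1.55, SE 0.23, adjusted p 5.39e-05) and Igfbp2 (3.83) rose, and Igfbp3 (-5.11) and Igfbp6 fell. Of the Wnt ligands and receptors 1 of 14 tested rose and 7 fell (median -1.19), with the frizzled receptor Fzd7 up (2.01, SE 0.48, adjusted p 0.00231) and the ligands Wnt4 (-3.69), Wnt5a (-6.37) and Wnt5b (-1.39) down. Of the Wnt antagonists outside the rule 1 of 3 tested rose and 2 fell (median -2.69), with Sfrp4 (-2.86) and Dkk3 (-2.69) lower from few UMIs. Fibroblast markers fell with these genes, 4 of 6 with a median of -2.69. Without the cells that held 2 or more stromal UMIs, in the IGF axis 4 of 10 rose and 3 fell (median 0.14) and of the Wnt ligands and receptors 1 of 13 rose and 5 fell (median -1.0). Igfbp3 was then at -5.94, Wnt4 at -2.77, Wnt5a at -5.92, Wnt5b at -1.99 and Dkk3 at -3.38, while Igfbp6 and Sfrp4 were too low to test. Without MG1 replicate 2 the change of Igfbp3 was -2.41. Wif1 rose in the members (2.26, SE 0.55, adjusted p 0.00299), whereas the other tumor cells had -0.01 (adjusted p 0.986). Of the phospholipase and platelet-activating factor genes 5 of 10 tested rose and 1 fell (median 0.80), with the acyltransferases Lpcat2 (3.96) and Lpcat1 (2.66) leading. Of the lineage transcription factors 3 of 21 tested rose and 10 fell (median -0.53): Foxc1 (1.62, SE 0.27, adjusted p 1.41e-04), Sox10 (1.5) and Ehf (1.12) rose, and Gata3 (-2.36), Runx1 (-1.39) and Sox9 (-1.42) fell. Of the targets of Trp53 and Trp53 itself 4 of 14 tested rose and 6 fell (median -0.84), with Cdkn1a, the p21 inhibitor, at 62.7 to 132 against 537 to 599 CPM (-2.54, SE 0.20, adjusted p 1.64e-07).

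Against Epcam-positive MG2 cells, the gland of the other mouse, 2989 of 11212 genes (26.7%) were higher and 3359 (30%) lower, and tissue and mouse cannot be told apart in this comparison. Scd1 (2.33), Hp (1.49) and Lbp (1.79) were higher than in MG2, and Spp1 had 0.16 (adjusted p 0.528). Saa1, which had -1.0 against MG1 (adjusted p 0.09) and 0.98 without MG1 replicate 2, was at 1048 and 1008 CPM in MG2 and fell by 3.72 on the log2 scale in the members.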

How the data were processed

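The deposited table holds raw UMI counts of 21743 genes in 21157 cells. The authors made these counts with Drop-seq tools and STAR against GRCm38.p6, as named in the submitters' processing notes and the methods, and whether strand was used is not stated. Cell names end in their library, and 0 cells had no library. Doublets were not called here. The members, gene lists and windows were chosen with earlier results of these data known. UMIs were summed per library and class. Sums of members, MG1 and MG2 entered 1 fit of edgeR 4.0.16 (R 4.3.3, TMM, filterByExpr, quasi-likelihood test, two-sided, Benjamini-Hochberg adjustment over all genes, threshold 0.05), and the other MT1 cells entered a fit of their own with the same gland sums. The study tested single cells; sums were used because cells are not replicates. Within MT1, log2 of CPM plus 10 was differenced per library over genes with at least 20 UMIs in either class. Named genes were the 15 highest and 10 lowest of these with 1 sign in all 5 libraries, the 12 largest rises and 12 largest falls against MG1 (adjusted p under 0.05, no overlap between libraries, at least 50 CPM in the higher group), the rule genes, Brca1 and genes of the lists. The 10 lowest against noncycling cells, and genes named in the blocks, were chosen after their values were seen. Folds against a class at 0 were taken against 3 counts over the group. On simulated counts for members against MG1, 93% of genes changed by 2 on the log2 scale and 40% of those changed by 1 were recovered, with 2.92% false calls. Positions come from the GENCODE annotation of GRCm38. Alternatives included DESeq2 1.42.0, other rule limits and leaving out each library. Results of some genes that these rules name are not reported here.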

Additional observations from a re-analysis of the deposited data

Results flagged for a closer look

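In 55 sets of values over the 5 member libraries, 5 had 1 library far from the others. Chance alone marks about 1 in 20 such sets, a rate that does not apply to 3 of the 5 (Cxcl13, Wap and Igfbp6), since a gene read in 1 library only is always marked. The chromosome 2 block differed from the other tumor cells by 0.54 on the log2 scale in MT1 replicate 1, above the other 4 libraries. Cxcl13 was read in the members of 1 library only, at 0.830 CPM, as were Wap at 0.952 CPM and Igfbp6 at 0.894 CPM. Upk3a reached 4.76 CPM in 1 member library.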

How the results depend on the processing

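Within the tumor, members and other cells were paired by library throughout. Between tumor and gland, no paired analysis was possible because the replicate numbers follow accession order and only name the libraries. In the comparison within the tumor, a pseudocount of 1 CPM gave 162 genes higher and 701 lower, and a marker sum without Igfbp5, chosen after seeing the data, left 12 higher. Leaving out 1 library at a time gave 35 to 40 higher and 195 to 207 lower. The share of members was 45.3% with a marker sum of 3 or more, 31.4% with 6 or more, 24.4% without Igfbp5 and 34.6% after thinning, and 38.5% to 41.4% with 1 library left out. Of the windows, 6 were higher against noncycling others, 5 with a pseudocount of 1 CPM, 1 with windows shifted by 10 genes, 7 with windows of 10 genes and 0 with windows of 40. In the lower direction there were 10 with windows of 10 genes, 2 with windows of 40 and 3 with genes of at least 60 CPM. These window settings were chosen after seeing the data. Without 1 library there were 3 to 5 windows higher and 4 to 7 lower, with 5 higher without MT1 replicate 1. Against MG1, DESeq2 called 2481 genes higher and 3270 lower, and leaving out 1 library gave 2481 to 3178 higher and 3046 to 3557 lower. Against MG2 this gave 2009 to 3578 higher and 2285 to 4127 lower. Of 494 values of named genes against MG1 under an alternative, 493 kept direction and call, and the other was Wap without MG1 replicate 2. Of 325 values of named genes within the tumor 37 moved by more than 1 SD, as did 5 of 65 values of the blocks, and no direction reversed. Genes such as Brca1, with 28 UMIs in all members, are limited by depth. MG1 replicate 2 holds 92 Epcam-positive cells.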
